A study of Mus musculus with 12 samples.

Results

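Golgi glycosyltransferases and sulfotransferases were followed across 4 groups of cultured mouse cells. The enzyme genes were chosen by a rule on symbols, with earlier results of these data known. They comprise the galactosyltransferases B3galt and B4galt, the N-acetylglucosaminyltransferases B3gnt and Mgat, the GalNAc-transferases Galnt, the sialyltransferases St3gal, St6gal, St6galnac and St8sia, the fucosyltransferases Fut, the sulfotransferases Chst, and the mannosidases Man1a, Man1c and Man2a, each prefix followed by a digit or by nothing. This rule found 91 of the 19505 genes named on the array, each measured by 1 transcript cluster (the group of probes for a gene): 17 Galnt, 14 Chst, 10 Mgat, 8 B3gnt, 8 Fut, 7 B4galt, 6 St3gal, 6 St8sia, 5 B3galt, 5 mannosidases, 4 St6galnac and 1 St6gal.

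The cells carried the oncogene v-erbB under the S100β promoter on a p53-/- background in the FVB-NJ strain, and all 4 groups shared both alleles. The labels also call them TSC1 cells, and do not say what that name means. The groups were normoxia with the solvent DMSO, hypoxia with DMSO, hypoxia with brefeldin A (BFA), and hypoxia with EHT-1864, each with 3 Clarion S arrays after 16 h in DMEM F-12 with B27. BFA blocks exchange factors of ARF GTPases and makes Golgi membrane and its resident enzymes flow back into the endoplasmic reticulum, and EHT-1864 inhibits Rac GTPases. Cells received EHT-1864 at 1 µM. The BFA dose is given as 1 µM in the protocol and as 0.1 µM in the series title, so that every BFA value below belongs to either dose. The design text speaks of 3 independent cultures, and where arrays of a group were not from separate cultures the p-values measure only the spread between those arrays, which may be technical.

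These enzymes build the sugar chains of secreted and membrane proteins, proteoglycans and lipids while the cargo passes through the Golgi. Mannosidases trim N-glycans before Mgat enzymes start their branches, Galnt enzymes begin O-glycans, and B4galt, B3galt and B3gnt enzymes lengthen the chains. Sialyltransferases and fucosyltransferases cap them, and Chst enzymes add sulfate, among other places to the chondroitin sulfate that coats glial progenitors and brain tumour cells. Gangliosides, sialylated glycolipids abundant in brain, are made by the same set, with B4galt6, St3gal5 and St8sia1 acting in turn on a ceramide-bound sugar.

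The values were log2 signals. The floor used below is the 95th percentile of the negative control probes of an array. Its mean was 5.61 for both the normoxia and the hypoxia DMSO arrays, 6.49 for the BFA arrays and 6.01 for the EHT-1864 arrays, and the hybridization controls, which are RNAs added during the assay, averaged 9.85, 9.76, 10.93 and 10.25 in the order normoxia, hypoxia DMSO, BFA and EHT-1864. The share of all clusters below the floor averaged 52.1%, 51.7%, 65.2% and 57.6% in that order. The part of these shifts in the results was not tested. Of the 91 enzyme genes, 18 were above the floor on all 12 arrays, 32 on some and 41 on none. All 3 arrays of a group were above the floor for 45 enzyme genes in the normoxia group, 47 in the hypoxia DMSO group, 20 in the BFA group and 32 in the EHT-1864 group. The median SD of an enzyme gene within a group was 0.17. Of 7 oligodendrocyte lineage markers measured, Olig1, Olig2, Sox10, Cspg4 and Mbp were above the floor on all 12 arrays and Mog on none. The mean log2 signal of this marker list lay between 9.60 and 9.73 on the normoxia arrays, 9.62 and 9.69 on the hypoxia DMSO arrays, 7.11 and 7.14 under BFA, and 8.43 and 8.63 under EHT-1864. Its part in the results was not tested. Of 6 astrocyte markers S100b was above the floor on all 12 arrays and Gfap, Aqp4, Aldh1l1 and Gjb6 on none. Of 6 neuron markers Tubb3 was above it on all 12 arrays and 4 on none, and of 6 fibroblast and pericyte markers Col1a1 was above it on all 12 arrays and the other 5 on none. All 6 microglia and all 5 endothelial markers were below the floor on all 12 arrays.

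The first comparison asked what hypoxia alone does to these enzymes. St8sia1, the GD3 ganglioside synthase, was the 1 enzyme gene of the 91 that changed in hypoxia against normoxia in the fit of all 12 arrays. St8sia1 gave log2 signals of 7.0, 6.95 and 6.72 on the normoxia arrays, 7.54, 7.6 and 7.6 on the hypoxia DMSO arrays, 5.45, 5.76 and 5.6 under BFA and 5.52, 5.71 and 5.54 under EHT-1864. The 3 hypoxia DMSO arrays lay above the 3 normoxia arrays without overlap, and both compound groups lay below all DMSO arrays. In hypoxia the gene rose by 0.69 ± 0.12 (log2, SE of the fit; limma adjusted p = 0.00938), a 1.62-fold difference, with means of 6.89 ± 0.15 and 7.58 ± 0.04 (SD, n = 3). No enzyme gene was called lower, and 10 had an unadjusted p under 0.05. Over all 22206 clusters, 2.11% were called higher and 0.563% lower at an adjusted p under 0.05. Among the enzyme genes 1.1% were called higher, and 1 call is too few to read against that background. The median difference was −0.03 both for the enzymes and for all clusters. The St8sia1 call ended when normoxia DMSO replicate 3 was left out, where the adjusted p of limma was 0.0604 and the highest of the 21 alternatives.

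Further enzyme genes had hypoxia arrays that lay wholly above the normoxia arrays without passing the test. Galnt3, Galnt11 and Galnt2, which place the first GalNAc of O-glycans, differed by 0.62 ± 0.20, 0.59 ± 0.19 and 0.46 ± 0.15 (log2), with limma adjusted p of 0.151, 0.123 and 0.134. St3gal3, a sialyltransferase acting on type 1 and type 2 chains, differed by 0.35 ± 0.11 with an adjusted p of 0.139 in limma. Galnt11, Galnt2 and St3gal3 passed in the limma fits kept to clusters with a log2 value of at least 6 or above the floor (adjusted p between 0.0333 and 0.0453), but not where the dimmest 25% of clusters were left out. Galnt3 passed with array weights and in the fit of the 2 groups (limma adjusted p of 0.0499 and 0.0491). In all, 11 of the 91 had non-overlapping groups with hypoxia higher and 10 with hypoxia lower, against 14% and 16.2% of all clusters. Chst11, Galnt10 and B4galt3 had the largest adjusted p values among those above the floor on all arrays, with differences of 0.02 ± 0.12, −0.02 ± 0.12 and −0.01 ± 0.19, and these signs turned in other fits.

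BFA was compared with DMSO, both in hypoxia, and asked how a block of ARF-dependent Golgi traffic moves these transcripts. Of the 91 enzyme genes, 38 (41.8%) fell and 17 (18.7%) rose, against a background of 24.6% of all clusters called lower and 26.1% called higher. Of those that rose, 10 were below the floor in both groups, as were 7 of those that fell, so most of the rises concern dim signals. The median difference was −0.26 for the enzymes and 0.11 for all clusters. Differences ran from −3.18 to 1.09 on the log2 scale. By fold, or by its bound where BFA arrays were below the floor, 12 falls and 0 rises reached 2-fold. The 3 BFA arrays lay wholly below the 3 DMSO arrays for 42 enzyme genes and wholly above for 19, where 27.3% and 28.7% of all clusters did so. Since RNA came from whole cultures, fewer cells of a type and less RNA per cell cannot be told apart.

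Of the 14 sulfotransferases named Chst, 6 fell with BFA, 3 rose and 5 did not pass the test. Chst15, Chst3 and Chst11 sulfate the GalNAc of chondroitin chains: Chst11 at the 4 position, Chst3 at the 6 position, and Chst15 by adding a further 6-sulfate to a unit that is already 4-sulfated. Chst11 gave log2 signals of 10.31, 10.25 and 10.14 on the normoxia arrays, 10.4, 10.15 and 10.19 on the hypoxia DMSO arrays, 8.07, 8.24 and 8.42 under BFA and 9.48, 9.38 and 9.35 under EHT-1864. The BFA arrays were the lowest, the EHT-1864 arrays lay between, and the 6 DMSO arrays overlapped. Chst11 was above the floor on every array, and with BFA it was lower by a log2 difference of −2.01 ± 0.12, a 4.02-fold fall (limma adjusted p = 6.78e-08). Chst3 gave log2 signals of 7.76, 7.89 and 7.5 on the normoxia arrays, 7.94, 7.88 and 8.08 on the hypoxia DMSO arrays, 4.49, 5.46 and 4.45 under BFA and 7.23, 6.88 and 6.93 under EHT-1864. All 3 BFA arrays were below the floor, so the fall of −3.17 ± 0.23 (limma adjusted p = 2.4e-07) is given as at least 2.78-fold. Chst15 gave log2 signals of 7.4, 7.09 and 6.95 on the normoxia arrays, 7.64, 7.55 and 7.6 on the hypoxia DMSO arrays, 4.07, 4.24 and 4.94 under BFA and 6.38, 6.23 and 6.28 under EHT-1864. Again the 3 BFA arrays lay below the floor and below all others, with a difference of −3.18 ± 0.19 (limma adjusted p = 5.69e-08), a fall of at least 2.15-fold.

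Chst5 and Chst2, which sulfate N-acetylglucosamine, fell as well with BFA. Chst5 gave 6.73, 7.01 and 6.55 on the hypoxia DMSO arrays, 4.05, 3.85 and 4.4 under BFA and 6.15, 5.41 and 6.0 under EHT-1864. The BFA arrays were all below the floor, and the difference from DMSO was −2.66 ± 0.20 (limma adjusted p = 3.67e-07), at least 1.21-fold. Chst2 fell by 1.14 on the log2 scale (2.2-fold) and Chst10, the sulfotransferase of the HNK-1 epitope on neural adhesion molecules, by 0.92 (1.9-fold). Chst8, which sulfates terminal GalNAc of N-glycans, rose by 0.78 ± 0.21, which became 0.46 without BFA replicate 3, and the other 2 that rose, Chst4 and Chst13, were below the floor in both groups. Chst12, a second chondroitin 4-sulfotransferase, and Chst14, which sulfates dermatan, did not pass the test with BFA, at 0.15 ± 0.13 and −0.26 ± 0.16 with limma adjusted p of 0.349 and 0.193. After a further quantile normalization Chst12 was called higher (0.47, limma adjusted p = 0.0078) and the sign of Chst14 turned (0.09).

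The 250 bases upstream of the annotated start of Chst11, Chst3 and Chst15 are printed because these 3 chondroitin sulfotransferases each fell at least 2-fold with BFA. They are RefSeq sequences of build GRCm38.p6, written 5′ to 3′ on the strand of the gene, at chr10:82985247-82985496 (plus strand) for Chst11, chr10:60219261-60219510 (minus strand) for Chst3 and chr7:132317027-132317276 (minus strand) for Chst15, which has a further annotated start. Capitals mark matches on either strand to CCACG, the core of the endoplasmic reticulum stress element, and to ACGTG, the core of the hypoxia response element, which overlap in Chst11. No match to either was present in the Chst15 stretch.
Chst11: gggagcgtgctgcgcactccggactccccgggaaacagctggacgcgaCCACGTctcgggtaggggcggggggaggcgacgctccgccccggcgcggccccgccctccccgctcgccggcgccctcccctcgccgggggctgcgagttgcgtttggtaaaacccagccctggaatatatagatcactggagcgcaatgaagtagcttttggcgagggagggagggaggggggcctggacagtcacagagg
Chst3: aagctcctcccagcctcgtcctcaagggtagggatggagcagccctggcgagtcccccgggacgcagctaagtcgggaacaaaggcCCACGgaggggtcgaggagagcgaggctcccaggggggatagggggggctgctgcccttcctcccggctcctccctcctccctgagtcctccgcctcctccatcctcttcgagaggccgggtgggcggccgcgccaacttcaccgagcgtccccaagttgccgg
Chst15: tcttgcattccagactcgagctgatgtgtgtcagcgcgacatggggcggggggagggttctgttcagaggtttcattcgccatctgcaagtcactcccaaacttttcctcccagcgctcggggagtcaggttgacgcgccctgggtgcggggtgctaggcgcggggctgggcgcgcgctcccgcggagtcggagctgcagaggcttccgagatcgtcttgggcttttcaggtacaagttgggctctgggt

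Among sialyltransferases, 4 of 6 St3gal genes fell with BFA and 1 rose. St3gal5 makes GM3, the parent of most gangliosides. St3gal5 gave log2 signals of 8.04, 8.01 and 7.91 on the normoxia arrays, 7.95, 7.92 and 8.0 on the hypoxia DMSO arrays, 5.96, 6.38 and 6.21 under BFA and 7.17, 6.68 and 7.15 under EHT-1864. The BFA arrays were the lowest, the EHT-1864 arrays lay between, and no compound array reached the DMSO arrays. The log2 difference with BFA was −1.78 ± 0.15, a 3.43-fold fall (limma adjusted p = 9.99e-07). St8sia1, which converts GM3 to GD3, fell by 1.98 on the log2 scale, at least 2.13-fold, and B4galt6, which makes the lactosylceramide that St3gal5 uses, by 0.94, which was 1.92-fold. These 3 enzymes, which act in turn on gangliosides, were thus each lower with BFA. B4galt5, which also makes lactosylceramide, was not called (−0.36 ± 0.14, limma adjusted p = 0.0519). Ugcg, which makes the glucosylceramide before it, rose by 0.69 (limma adjusted p = 0.00581). St3gal4, which sialylates type 2 chains, fell by 1.61 (at least 1.34-fold), and St6gal1, which adds α2,6-linked sialic acid to N-glycans, by 1.36 (at least 1.2-fold). St3gal3 rose by 0.50 ± 0.11 with BFA (limma adjusted p = 0.00274), from 9.44, 9.52 and 9.45 to 9.98, 9.98 and 9.95. The 6 arrays did not overlap. St3gal6, another type 2 chain sialyltransferase, was lower by −0.52 ± 0.14, a call that ended after a further quantile normalization, where the difference was −0.17 and the adjusted p in limma 0.277, the highest of its alternatives. The 4 St6galnac genes and 5 of the 6 St8sia genes were below the floor in both groups.

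In the N-glycan set, 2 of 5 mannosidases and 4 of 10 Mgat genes fell with BFA, while 2 Mgat genes rose. Of these, Mgat3 and Mgat5b among the falls and Mgat4d among the rises were below the floor in both groups. The Mgat4d call ended in 6 of 19 alternatives. Man2a2, an α-mannosidase II that acts after Mgat1, fell by 1.46 ± 0.15 on the log2 scale (2.75-fold), and Man1a2, which trims α1,2-mannose, by 0.96 ± 0.16 (1.94-fold). Mgat5 and Mgat4a, which open extra branches, fell by 1.18 ± 0.19 and 1.04 ± 0.12 (2.27-fold and 2.06-fold). Mgat2, which starts the second main branch, showed no call, at 0.00 ± 0.24. Mgat2 gave 8.54, 8.69 and 8.65 on the hypoxia DMSO arrays, 8.0, 9.13 and 8.76 under BFA and 7.71, 7.14 and 7.68 under EHT-1864. The lowest BFA array was below and the other 2 above all DMSO arrays, and the BFA group spread widely, with an SD of 0.58 against 0.08. Man2a1, the other α-mannosidase II, differed by 0.03 ± 0.15, was called higher after quantile normalization (0.39, limma adjusted p = 0.0405), and was between −0.11 and −0.05 in 3 other fits. Man1c1 differed by 0.31 ± 0.16 (limma adjusted p = 0.127) and was called higher after quantile normalization (0.67, limma adjusted p = 0.00563). Mgat1, which begins complex N-glycans, was higher by 0.36 ± 0.14 at a limma adjusted p of 0.0493, a call that ended without any 1 of the 6 DMSO arrays, without BFA replicate 2 or 3 or EHT-1864 replicate 1, with a trended and robust variance, and in a fit of the 2 groups alone, with limma adjusted p up to 0.161. The median of the Mgat genes was 0.04 and turned to −0.10 after quantile normalization.

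Of the 17 Galnt genes 8 fell with BFA and 1 rose, with a median of −0.43. Galnt16 gave 8.18, 8.02 and 8.32 on the hypoxia DMSO arrays, 6.31, 5.95 and 6.39 under BFA and 7.86, 8.1 and 7.51 under EHT-1864. For Galnt16 the BFA arrays were below the floor and below all others, while EHT-1864 overlapped DMSO, and the difference from DMSO of −1.96 ± 0.18 (limma adjusted p = 2.41e-06) is at least 3.21-fold. Galnt1 fell by 1.55 ± 0.24 (2.93-fold) and Galnt10 by 1.11 ± 0.12 (2.16-fold), while Galnt2 was not called, at −0.11 ± 0.15, and was 0.16 after quantile normalization. The only Galnt rise, of Galnt5, was below the floor in both groups.

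The chain-lengthening families did not move alike with BFA. Of the 7 B4galt genes 4 fell and 1 rose, with a median of −0.94. B4galt1, the main galactosyltransferase of N-glycan branches, fell by 1.41 ± 0.17 on the log2 scale, at least 1.96-fold. B4galt7, which adds the first galactose of the linker that joins glycosaminoglycans to proteins, was higher by 0.45 ± 0.16 (limma adjusted p = 0.0301), and the call ended without any 1 of the 3 hypoxia DMSO arrays, without BFA replicate 3, and in a fit of the 2 groups alone, with adjusted p up to 0.132. Of the 8 B3gnt genes 5 rose and 1 fell, with a median of 0.58. B3gnt8, which extends poly-N-acetyllactosamine, gave 6.52, 6.6 and 6.44 on the hypoxia DMSO arrays, 7.66, 7.39 and 7.24 under BFA and 6.84, 7.08 and 6.94 under EHT-1864. All BFA arrays lay above all DMSO arrays, with a difference of 0.91 ± 0.14 (limma adjusted p = 0.000129), 1.87-fold. B3gnt9, above the floor on 2 of 3 DMSO and 1 of 3 BFA arrays, was higher by 0.84 ± 0.13. The other 3 called rises carry no fold, since B3gnt3 was below the floor on all 3 BFA arrays and B3gnt4 and B3gnt6 on all arrays of both groups. The mean floor was 5.61 on the hypoxia DMSO arrays and 6.49 on the BFA arrays. The part of this shift in the B3gnt rises was not tested. B3gnt2, also a poly-N-acetyllactosamine enzyme, fell by 0.86 ± 0.12, at least 1.65-fold. B3galt6, which adds the second galactose of the glycosaminoglycan linker, did not differ by more than its error, at 0.00 ± 0.17.

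Of the 8 Fut genes 4 fell and 3 rose with BFA, all 3 rises below the floor in both groups. Fut8, which adds the core fucose of N-glycans, gave 7.2, 6.87 and 7.09 on the hypoxia DMSO arrays, 4.94, 5.59 and 5.27 under BFA and 6.24, 5.49 and 5.82 under EHT-1864. The BFA arrays lay below the floor and the DMSO arrays above all compound arrays. The difference with BFA was −1.79 ± 0.20 (limma adjusted p = 1.09e-05), at least 1.48-fold. Fut9, which makes the Lewis x structure, fell by 0.68 ± 0.12, at least 1.22-fold. Further quantile normalization moved several called values by over 1.5 times and left the calls in place: B3gnt2 became −0.52, B4galt6 −0.61, Fut9 −0.37, St3gal3 0.76, B4galt7 0.81 and Mgat1 0.69. Without BFA replicate 3 B4galt7 was at 0.27. In the BFA group only 1 array was above the floor for Chst2, Chst10, Mgat5 and St3gal5, and 2 arrays for Galnt1, Chst14 and Mgat1.

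**Figure D1:**
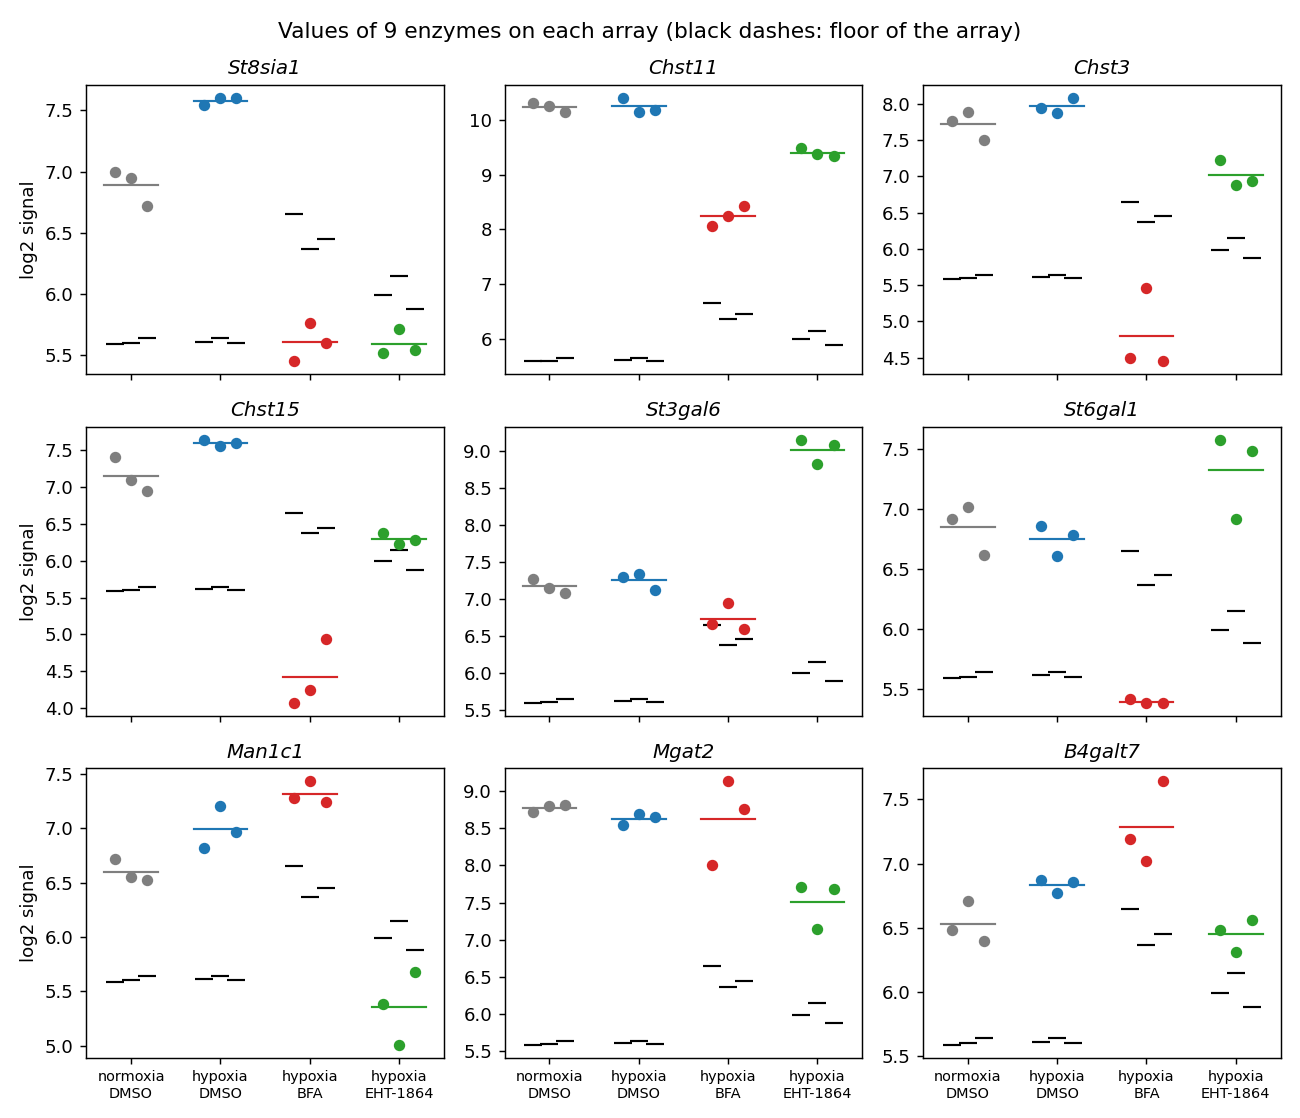
Log2 signal on each of the 12 arrays for 9 enzyme genes, by group (points), with the mean of each group (coloured lines) and the floor of each array (black dashes); the vertical range differs between panels. Chst11, Chst3 and Chst15 step down from DMSO over EHT-1864 to BFA, while St3gal6 is highest on the 3 EHT-1864 arrays.

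EHT-1864 was compared with the same hypoxia DMSO arrays, which asked what a Rac inhibitor does to these genes. Of the 91 enzyme genes 38 (41.8%) fell and 16 (17.6%) rose, against 17.4% of all clusters called lower and 13% called higher. Below the floor in both groups were 10 of the rises and 5 of the falls. The median difference was −0.25 for the enzymes and 0.06 for all clusters, with a range from −1.99 to 1.77, and by fold or its bound 9 falls and 1 rise reached 2-fold. The EHT-1864 arrays lay wholly below the DMSO arrays for 42 enzyme genes and wholly above for 22, against 24.3% and 24.2% of all clusters. Both compound comparisons share the 3 hypoxia DMSO arrays, so their values are set side by side and no overlap is given as a result.

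The largest rise among the enzyme genes was of St3gal6. St3gal6 gave log2 signals of 7.27, 7.15 and 7.08 on the normoxia arrays, 7.29, 7.33 and 7.12 on the hypoxia DMSO arrays, 6.66, 6.94 and 6.59 under BFA and 9.15, 8.82 and 9.08 under EHT-1864. The EHT-1864 arrays stood above the other 9 arrays, and the BFA arrays lay below all others. With EHT-1864 the gene rose by 1.77 ± 0.14 (limma adjusted p = 2.04e-06), 3.41-fold, from 7.25 ± 0.11 to 9.02 ± 0.18 (SD, n = 3). Fut9 rose by 0.59 ± 0.12 (1.51-fold), B3gnt3 by 0.51 ± 0.12 (1.42-fold) and B3gnt8 by 0.43 ± 0.14 (1.35-fold). The mean floor was 5.61 on the hypoxia DMSO arrays and 6.01 on the EHT-1864 arrays. The part of this shift in these rises was not tested. St6gal1 rose by 0.58 ± 0.17 (limma adjusted p = 0.0206), although leaving out hypoxia DMSO replicate 2, or EHT-1864 replicate 1 or 3, ended the call, with adjusted p up to 0.0804. The B3gnt8 call ended without any of 4 arrays (hypoxia DMSO replicate 1 or 3, EHT-1864 replicate 2 or 3), with limma adjusted p up to 0.0959. Of 8 B3gnt genes 6 rose and none fell, 3 of the 6 below the floor in both groups. Among these 3 was B3gnt5, higher by 1.35 ± 0.12 and without a fold.

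St8sia1 was below the floor on all 3 EHT-1864 arrays, with a difference of −1.99 ± 0.12 (limma adjusted p = 3.39e-07), at least 2.98-fold, beside −1.98 ± 0.12 with BFA. Its precursor enzymes fell too, St3gal5 by 0.95 ± 0.15 (1.94-fold) and B4galt6 by 0.97 ± 0.12 (1.96-fold).

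Of the 14 Chst genes 8 fell with EHT-1864 and 1, below the floor in both groups, rose. Chst2 gave 7.36, 7.45 and 7.5 on the hypoxia DMSO arrays, 6.25, 6.11 and 6.53 under BFA and 5.82, 5.74 and 5.95 under EHT-1864. The EHT-1864 arrays were the lowest and the DMSO arrays the highest without overlap, and the fall with EHT-1864 was −1.60 ± 0.14 (limma adjusted p = 5.67e-06), 3.03-fold. Chst15 fell by 1.30 ± 0.19 (2.46-fold), Chst5 by 0.91 ± 0.20 (1.88-fold) and Chst11 by 0.85 ± 0.12 (1.8-fold). Chst14 and Chst12, not called with BFA, fell by 0.87 ± 0.16 (1.82-fold) and 0.57 ± 0.13 (1.48-fold). Chst3 fell by 0.95 ± 0.23 (limma adjusted p = 0.00735), a call that ended after quantile normalization, at −0.74 with an adjusted p in limma of 0.0554, the highest of its alternatives.

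Of the 5 mannosidases 3 fell with EHT-1864. Man1c1, a Golgi α1,2-mannosidase, gave log2 signals of 6.72, 6.55 and 6.52 on the normoxia arrays, 6.82, 7.2 and 6.97 on the hypoxia DMSO arrays, 7.28, 7.43 and 7.24 under BFA and 5.38, 5.01 and 5.68 under EHT-1864. The EHT-1864 arrays lay below the floor and below the other 9, and the BFA arrays were the highest. The fall with EHT-1864 was −1.65 ± 0.16 (limma adjusted p = 1.67e-05), at least 1.99-fold. Man1a2 fell by 1.33 ± 0.16 (2.51-fold), Man2a2 by 0.84 ± 0.15 (1.79-fold), and Man2a1 was not called at −0.27 ± 0.15. Of the 10 Mgat genes 4 fell and none rose, among them Mgat5 by 1.43 ± 0.19 (2.69-fold), Mgat2 by 1.12 ± 0.24 (2.17-fold) and Mgat1 by 0.58 ± 0.14 (1.5-fold). Mgat4a was not called, at −0.19 ± 0.12 (limma adjusted p = 0.256), and its sign turned after quantile normalization. Mgat3, which adds the bisecting N-acetylglucosamine, was called lower with both compounds but was below the floor in all 3 hypoxic groups. Its BFA call ended without BFA replicate 2, and its EHT-1864 call without hypoxia DMSO replicate 3 or EHT-1864 replicate 2.

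Among O-glycan enzymes 9 of 17 Galnt genes fell with EHT-1864 and none rose. Galnt3 gave 6.31, 6.16 and 6.18 on the hypoxia DMSO arrays, 5.82, 6.03 and 5.89 under BFA and 3.97, 4.22 and 4.89 under EHT-1864. Its EHT-1864 arrays were the lowest and below the floor, and the fall was −1.86 ± 0.20 (limma adjusted p = 3.32e-05), at least 1.16-fold. Galnt7 fell by 1.16 ± 0.19 (2.23-fold), Galnt2 by 0.65 ± 0.15 (1.57-fold) and Galnt10 by 0.60 ± 0.12 (1.52-fold). Galnt1 fell by 0.84 ± 0.24 (limma adjusted p = 0.0183), and the call ended in 3 of 21 alternatives with adjusted p up to 0.0902: quantile normalization, and without hypoxia DMSO replicate 2 or EHT-1864 replicate 2. Galnt16, which fell with BFA, was not called with EHT-1864, at −0.35 ± 0.18 (limma adjusted p = 0.165).

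Of the galactosyltransferases 4 of 7 B4galt genes fell with EHT-1864, among them B4galt1 by 1.29 ± 0.17 (2.45-fold). B4galt3 and B4galt5, another lactosylceramide synthase, were not called, at −0.05 ± 0.19 and 0.05 ± 0.14 (limma adjusted p of 0.869 and 0.824), and both signs turned in other fits. B3galt6 fell by 0.74 ± 0.17 (1.67-fold), and B4galt7 was not called at −0.38 ± 0.16 (limma adjusted p = 0.0833). Fut8 fell by 1.2 ± 0.20 (2.3-fold). After quantile normalization B3gnt8 was at 0.66 and Chst12 at −0.36 with EHT-1864, and both were still called. In the EHT-1864 group only 1 array was above the floor for Chst2, Fut8 and Mgat1, and 2 arrays for B4galt1, B3galt6, Chst5, Chst14 and Mgat5.

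**Figure D2:**
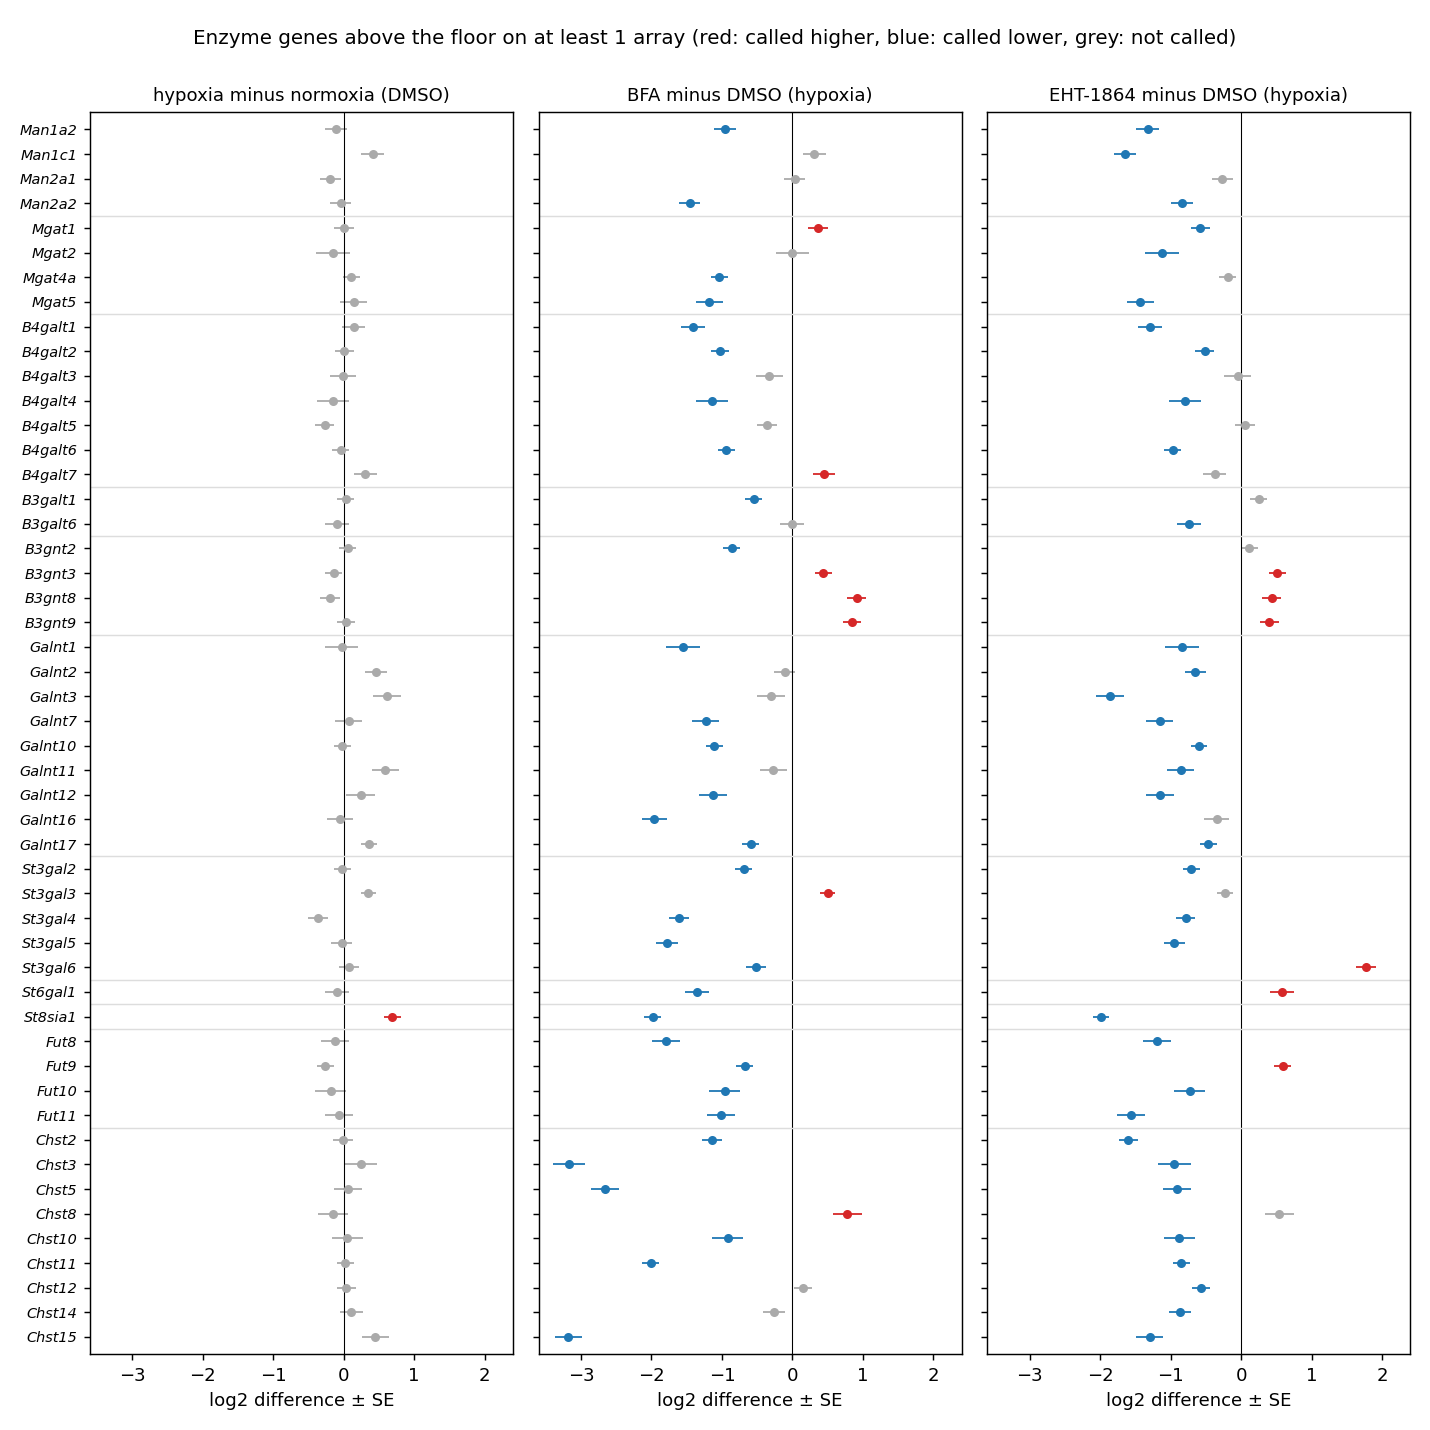
Log2 difference and SE (bars) for the 50 enzyme genes above the floor on at least 1 array, in hypoxia against normoxia, BFA against DMSO and EHT-1864 against DMSO, in red (higher) or blue (lower) for an adjusted p under 0.05 and grey otherwise. Most coloured points lie left of 0 in both compound panels, and St8sia1 is the 1 coloured point of the hypoxia panel.

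BFA and EHT-1864 were then compared directly, which tests where the 2 compound groups differ. Of the 91 enzyme genes 17 (18.7%) were higher and 25 (27.5%) lower with BFA than with EHT-1864, against 16.9% and 19.6% of all clusters. Of these, 4 and 6 were below the floor in both groups, and the median difference was −0.03 against 0.06 for all clusters. The 2 groups lay on either side of each other without overlap for 18 enzyme genes with BFA higher and 23 with BFA lower, where 20.3% and 22% of all clusters did so.

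St3gal6 differed by −2.29 ± 0.14 (limma adjusted p = 8.07e-08), 4.88-fold lower with BFA. Man1c1 lay the other way, at 1.96 ± 0.16 (limma adjusted p = 1.22e-06), at least 2.48-fold higher with BFA. St6gal1 was lower with BFA by at least 1.79-fold (−1.94 ± 0.17), Fut9 by at least 1.84-fold (−1.27 ± 0.12), Galnt16 by at least 2.51-fold (−1.60 ± 0.18) and B3gnt2 by at least 1.78-fold (−0.97 ± 0.12). Among chondroitin sulfotransferases Chst3 was lower with BFA than with EHT-1864 by at least 1.44-fold (−2.21 ± 0.23), Chst15 by −1.88 ± 0.19 and Chst11 by −1.16 ± 0.12 (2.24-fold). Chst12 and Chst14 were higher with BFA, by 0.71 ± 0.13 and 0.61 ± 0.16. The N-glycan enzymes Mgat2 and Mgat1 were higher with BFA by 1.12 ± 0.24 (2.17-fold) and 0.94 ± 0.14 (1.92-fold), and Mgat4a was lower by −0.85 ± 0.12. Both linker galactosyltransferases were higher with BFA, B4galt7 by 0.83 ± 0.16 (1.78-fold) and B3galt6 by 0.74 ± 0.17 (1.67-fold), as was St3gal3 by 0.73 ± 0.11 (1.66-fold). St8sia1, at 0.01 ± 0.12 and below the floor in both groups, and B4galt6, at 0.03 ± 0.12, were not called. Calls for Galnt2 (0.54 ± 0.15), Galnt11 (0.59 ± 0.19), Chst2 (0.46 ± 0.14) and B3gnt8 (0.47 ± 0.14) each ended in a fit of the 2 groups alone. Galnt2 and Galnt11 also lost their calls without EHT-1864 replicate 2, and Galnt11 without BFA replicate 2 and with array weights. Chst2 lost its call without BFA replicate 3 or EHT-1864 replicate 1 or 2, and B3gnt8 without EHT-1864 replicate 1. The highest limma adjusted p of these 4 over the alternatives were 0.0516, 0.0993, 0.0829 and 0.0654.

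The stretches upstream of Man1c1 and St3gal6 are printed since these genes differed between the compounds in opposite directions. They lie at chr4:134704291-134704540 (minus strand) and chr16:58523427-58523676 (minus strand, 1 of the gene's 2 annotated starts), in the same build. Capitals mark CCACG on either strand, which reads CGTGG on the other strand. Man1c1 held 3 matches, and St3gal6 held none and no ACGTG.
Man1c1: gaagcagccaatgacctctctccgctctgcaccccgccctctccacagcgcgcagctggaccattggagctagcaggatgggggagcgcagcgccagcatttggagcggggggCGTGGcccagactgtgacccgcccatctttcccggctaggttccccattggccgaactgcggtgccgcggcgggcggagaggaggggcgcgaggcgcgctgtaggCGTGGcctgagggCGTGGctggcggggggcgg
St3gal6: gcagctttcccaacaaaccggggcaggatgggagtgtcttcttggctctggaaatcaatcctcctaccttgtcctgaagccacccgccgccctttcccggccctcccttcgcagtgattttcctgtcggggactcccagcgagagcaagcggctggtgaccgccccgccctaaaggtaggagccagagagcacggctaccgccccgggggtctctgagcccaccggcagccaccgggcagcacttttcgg

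**Figure D3:**
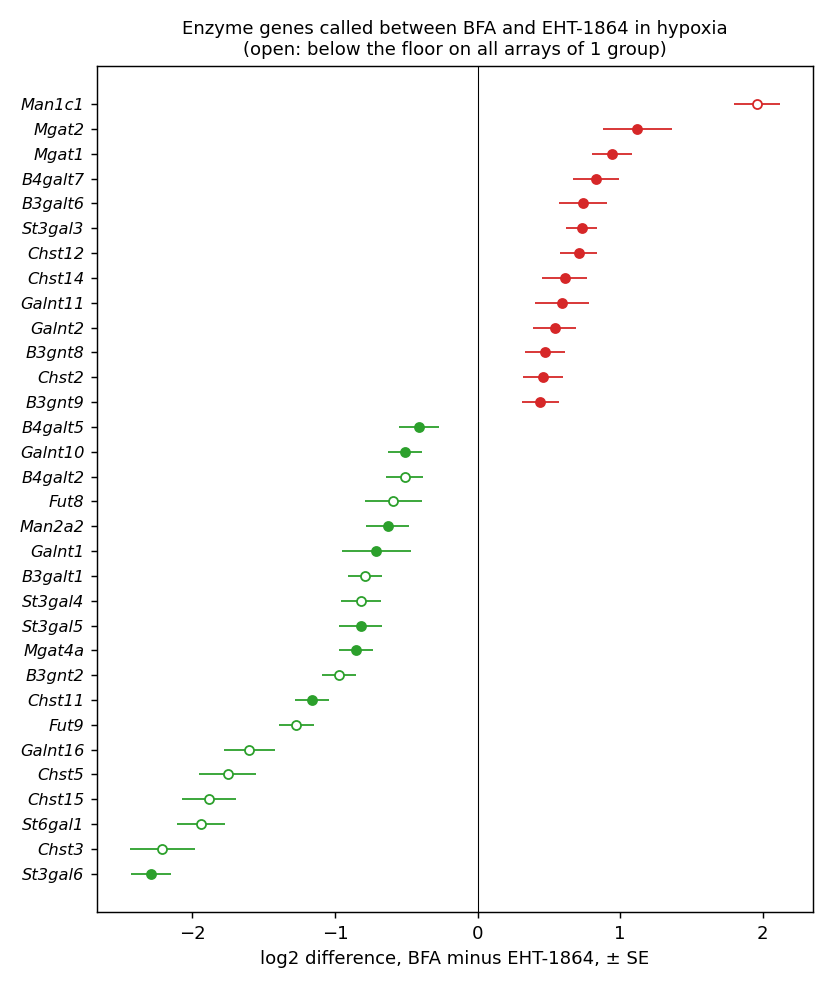
Log2 difference of BFA minus EHT-1864 with SE (bars, red for higher and green for lower) for the 32 enzyme genes called between the compounds and above the floor in at least 1 of the groups, where 12 open points stand for genes below the floor on all arrays of 1 group. Of these genes 13 are higher with BFA, from Man1c1 at 1.96 down, and St3gal6 is lowest at −2.29.

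Motifs were counted in RefSeq windows of 300 bases (250 before to 50 after a start) in build GRCm38.p6, on both strands. Of the 91 enzyme genes 69 had a window, 91 windows in all. ACGTGGC, the letters of the Golgi stress element read by the factor TFE3, was in 0% of these windows and in 2.58% of all 32851 windows. ACGTG was in 18.7% against 19.6%, and CCACG in 40.7% against 32.8%. ACGTGGC contains ACGTG, and the enzyme windows had a median GC content of 62.7% against 52.7% for all. For enzyme genes that fell with BFA the shares were 14.6% for ACGTG and 39% for CCACG over 41 windows, and for those that fell with EHT-1864 18.9% and 48.6% over 37 windows. For those that rose with BFA they were 18.8% and 50% over 16 windows, and for those that rose with EHT-1864 26.7% and 33.3% over 15 windows. These are counts of letters, and no binding was measured.

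Other genes of the same pathways were counted from lists that leave out the 91 unless stated. Each count from the deposited values stands against the shares of all clusters given above for its comparison. For counts after quantile normalization no such share is given. Of 32 measured enzymes of glycosaminoglycan chains, 17 fell and 3 rose with BFA, 18 fell and 5 rose with EHT-1864, and none was called in hypoxia. After quantile normalization the BFA counts were 12 lower and 8 higher. Sulf2, an extracellular heparan 6-O-sulfatase, fell by 3.28 ± 0.13 on the log2 scale with BFA, at least 7.96-fold. Hs3st1, a heparan 3-O-sulfotransferase, fell by 2.43 ± 0.12 (at least 2.61-fold), and Xylt1, which adds the xylose that starts the linker, by 2.03 ± 0.13 (4.08-fold). Hs3st2 and Csgalnact2, a starter of chondroitin chains, rose with BFA by 0.74 ± 0.15 and 0.63 ± 0.15. Csgalnact1, the paralog of Csgalnact2, was lower with BFA, at −1.16 (limma adjusted p = 0.000736). Chpf, a chondroitin polymerase subunit, averaged 8.96 ± 0.10 in the hypoxia DMSO group, 9.23 ± 0.07 under BFA and 7.07 ± 0.47 under EHT-1864 (SD, n = 3). It fell by 1.89 ± 0.19 (3.69-fold) with EHT-1864 and was 4.46-fold higher with BFA than with EHT-1864.

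Donor supply covers the enzymes and transporters of nucleotide sugars and activated sulfate. Of 35 measured, 14 fell and 8 rose with BFA, and 21 fell and 2 rose with EHT-1864. The median with BFA, −0.19, turned to 0.14 after quantile normalization, where 11 fell and 14 rose, and the EHT-1864 counts became 15 and 4. Ugdh, which makes the UDP-glucuronate of glycosaminoglycans, fell by 2.42 ± 0.15 (5.36-fold) with BFA and 1.89 ± 0.15 (3.72-fold) with EHT-1864. Ugp2, the UDP-glucose enzyme before it, fell by 2.13 ± 0.13 (4.39-fold) and Gfpt2, which starts hexosamine synthesis, by 2.18 ± 0.12 (4.53-fold) with BFA. Its paralog Gfpt1 rose with BFA by 0.5 (limma adjusted p = 0.0124). Gnpnat1, which acetylates glucosamine phosphate in the same path, averaged 7.18 ± 0.12 in the hypoxia DMSO group, 8.69 ± 0.18 under BFA and 6.2 ± 0.34 under EHT-1864 (SD, n = 3), a rise of 1.51 ± 0.17 (2.85-fold) with BFA. Gmds and Gmppb, which serve GDP-fucose and GDP-mannose, rose with BFA by 1.21 ± 0.20 (2.31-fold) and 1.19 ± 0.19 (at least 2.09-fold). With EHT-1864 Gmds rose too, by 1.26, while Gmppb was lower, at −0.91 (limma adjusted p of 0.000502 and 0.00278). In hypoxia the UDP-galactose transporter Slc35a2 rose by 0.66 ± 0.13 (limma adjusted p = 0.0179) and Gfpt2 fell by 0.52 ± 0.12 (limma adjusted p = 0.0436).

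The list of Golgi stress genes linked to TFE3 has 12 genes, 3 of them (St3gal1, St3gal6 and Fut1) among the 91. With BFA 7 rose and 1 fell, and after quantile normalization 8 rose and none fell. Of the 7 rises 2 were below the floor in both groups. The rise of Stx3 was not called after quantile normalization (0.27, limma adjusted p = 0.173). The golgins Golga3, Golgb1 and Golga2 rose with BFA by 1.17 ± 0.17 (2.25-fold), 1.02 ± 0.14 (2.02-fold) and 0.94 ± 0.12 (1.92-fold), and the 1 fall was of St3gal6. With EHT-1864 3 rose and 2 fell (3 and 1 after quantile normalization), with Uap1l1 at 1.37 ± 0.17 and St3gal6 at 1.77 ± 0.14 among the rises and Golgb1 lower by −0.89 ± 0.14. The other rise, of St3gal1, was below the floor in both groups. In hypoxia alone Wipi1 rose by 0.71 ± 0.13 and Golgb1 by 0.62 ± 0.14 (limma adjusted p of 0.0112 and 0.0275).

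**Figure D4:**
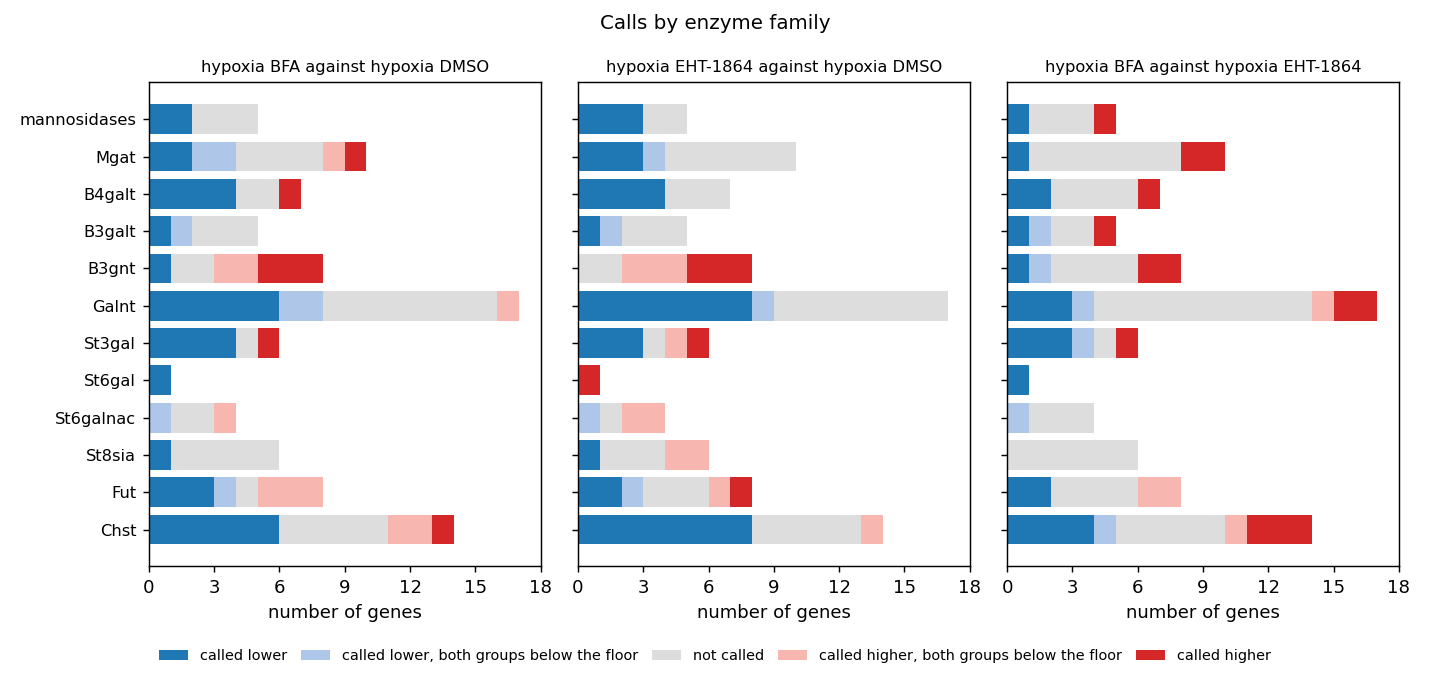
Number of genes called higher (red), lower (blue) or not called (grey) in each of 12 enzyme families, for BFA and EHT-1864 each against DMSO and against each other, with pale shades for calls below the floor in both groups. Chst and Galnt, the largest families, hold the most falls with either compound, and B3gnt is the 1 family with at least 5 rises in both. With BFA 6 of 14 Chst and 8 of 17 Galnt genes fell, beside 38 of all 91. With EHT-1864 8 and 9 fell, beside 38 of all 91.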

How the data were processed

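RNA of 4 groups of 3 cultures was measured on 12 Clarion S mouse arrays. The deposited values were log2 signals, 1 per transcript cluster and array, which the authors made by RMA in Affymetrix Expression Console, per the submitters' processing notes. RMA corrects background, brings the arrays to 1 distribution at the probe level and summarises probes, which hides any difference in RNA content between cells. The deposited cluster values did not share 1 distribution. Their SD over clusters averaged 2.48 for normoxia, 2.51 for hypoxia DMSO, 2.28 for BFA and 2.41 for EHT-1864 arrays. Versions, settings and genome build are not given in the sources used here. The table held 28846 rows. The 6640 control rows were left out of the tests, and 22206 clusters were tested without a filter on level. Of these, 19572 had 1 symbol in the platform annotation, updated by Entrez number through a RefSeq table of GRCm38.p6, 0 had several and 2634 had none. All 91 enzyme genes had the same symbol in both, and 4 further RefSeq genes that meet the rule were not analysed here.

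All 12 arrays were fitted together with limma 3.58.1 in R 4.3.3 (lmFit and eBayes, two-sided, residual df 8, prior df 4.87), adjusted by Benjamini-Hochberg over all clusters of a comparison and called at 0.05. Where every array of 1 group was under the floor, the fold is a bound ("at least"): the brighter group's mean minus the dim group's, with each dim array set to the higher of its floor and its signal. With both groups under the floor there is no fold. The enzyme genes and lists were chosen with earlier results of these data known, and no list was tested as a set. Selected for naming were, per comparison, the 10 largest non-overlapping called rises and falls above the floor in at least 1 group. The 3 least changed by adjusted p were added per comparison. Also selected were the largest called change each way with BFA and the brightest gene of each family. To these came 18 fixed enzymes and the 3 largest called changes each way of each list. The text does not name every gene selected, and it names some others. Genes of uncertain role were left out of the text. The labels do not say whether equal array numbers share a culture. The deviations of same-numbered arrays correlated between −0.18 and 0.17, so the numbers were not used as pairs. No replicate was a copy of another (at most 0.054% of values identical). The number of arrays limits the precision. The code was tested on simulated data, and alternatives covered normalization, filters on dim clusters, the variance model, array weights, the arrays fitted, a block and leaving out each array.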

Additional observations from a re-analysis of the deposited data

How the results depend on the processing

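Of 111 calls of enzyme genes selected for naming, 87 held under every 1 of the 21 alternatives in which the gene was kept. A further 24 ended under at least 1, and 0 reversed. Enzyme genes higher in hypoxia numbered 1 in the fit of all arrays, 4 where clusters needed a log2 value of 6, 5 where they had to exceed the floor on 3 arrays, 4 with a trended and robust variance, 7 with array weights and 3 in a fit of the 2 groups. Array weights gave 1 lower (St6galnac5, −0.46) in place of 0. Filters at a log2 of 6 and at the floor kept 47 and 49 enzyme genes and left 7 and 7 higher with BFA and 7 and 7 higher with EHT-1864, where fewer dim genes were tested. Of all clusters kept by these filters, 2197 of 10545 and 2155 of 10991 were higher with BFA. For the EHT-1864 counts no such share is given. The counts below for the compounds fitted as 2 groups, the replicate block and single arrays left out also stand without one. Higher with BFA than with EHT-1864 were 11 in the fit of those 2 groups. With the replicate block, 1 was higher in hypoxia, 16 higher and 39 lower with BFA, 14 and 39 with EHT-1864, and 16 and 22 between the compounds. Leaving out single arrays gave ranges of 0 to 1 higher in hypoxia (0 without normoxia DMSO replicate 3), 12 to 18 higher and 37 to 39 lower with BFA, 11 to 19 and 35 to 40 with EHT-1864, and 13 to 17 and 21 to 25 between the compounds. Over all clusters in hypoxia, 468 were called higher and 125 lower, against 1265 and 993 with array weights. Called higher in hypoxia were 780 of the 10545 clusters kept at a log2 of 6 and 790 of the 10991 kept at the floor. With a trended and robust variance 766 were higher, and in the fit of the 2 groups 819. Taking the mean of the clusters of a gene was not run, as each enzyme gene had 1.

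Over all 91 enzyme genes, quantile normalization turned the sign of 4 differences in hypoxia, 15 with BFA, 7 with EHT-1864 and 6 between the compounds, and median subtraction of 3, 0, 0 and 1. None of these was called in the fit reported. Some of these signs are not listed below, such as B4galt3 with BFA (−0.33 to 0.01) and B3galt1 in hypoxia (0.03 to −0.04), both after quantile normalization. Of the differences that were called or selected for naming within their own comparison, the following signs turned under some alternative. None of them was called in the fit reported. In hypoxia these were B4galt3 (0.02 without normoxia DMSO replicate 2), Chst11 (−0.01 after median subtraction, and from −0.06 to 0.06 when single arrays were left out) and Galnt10 (from −0.07 to 0.01 likewise). With BFA they were Galnt2 (0.16 after quantile normalization), Man2a1 (−0.05 with array weights, −0.05 without hypoxia DMSO replicate 1 and −0.11 without BFA replicate 2, but called higher at 0.39 after quantile normalization) and Mgat2 (from −0.25 to 0.32 when single arrays were left out). With EHT-1864 they were B4galt3 (0.14 after quantile normalization, 0.00 after median subtraction, 0.01 with array weights, and from −0.12 to 0.09 without single arrays), B4galt5 (from −0.04 to 0.17 without single arrays) and Mgat4a (0.01 after quantile normalization). Between the compounds they were B4galt6 (0.00 with array weights, from −0.08 to 0.10 without single arrays) and Chst8 (from −0.08 to 0.44 likewise). The causes were not tested. Signal over background limits the comparison, since 41 of the 91 enzyme genes were below the floor on all 12 arrays.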

Other observations

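Golgi glycosyltransferases outside the 91 were counted in the same way. Of 36 measured, 14 fell and 6 rose with BFA, 4 of the rises below the floor in both groups, where 24.6% and 26.1% of all clusters fell and rose. With EHT-1864 17 fell and 3 rose, where 17.4% and 13% of all clusters did so. B3gat1, which adds the glucuronic acid of the HNK-1 epitope that Chst10 sulfates, was lower with BFA by −2.04 ± 0.14 (log2, SE), below the floor on its 3 BFA arrays. C1galt1, which builds core 1 O-glycans on the GalNAc that Galnt enzymes attach, fell by 1.34 ± 0.19 with EHT-1864 (2.53-fold). C1galt1 also fell with BFA, by 1.74 (limma adjusted p = 1.12e-05), and was not called between the compounds (−0.41, limma adjusted p = 0.125). Its chaperone C1galt1c1 was 1.98-fold higher with BFA than with EHT-1864 (0.99 ± 0.13). Ugcg, which makes the glucosylceramide on which the ganglioside enzymes build, rose by 0.97 ± 0.18 with EHT-1864 (1.96-fold). Ugcg also rose with BFA, by 0.69 (limma adjusted p = 0.00581), and was not called between the compounds (−0.28, limma adjusted p = 0.244).

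Genes that hold Golgi enzymes in place or set Golgi pH and ion content differed between the compounds. Of 13 measured, 4 rose and 1 fell with BFA (6 and 0 after quantile normalization), 0 rose and 8 fell with EHT-1864, and 9 were higher and 0 lower with BFA than with EHT-1864, where 16.9% and 19.6% of all clusters were higher and lower. Golph3l, a paralog of the retention adaptor Golph3, rose with BFA by 1.10 ± 0.15 (2.14-fold), and Cog6 and Cog3, subunits of the tether that recycles Golgi enzymes, by 0.88 ± 0.14 (1.84-fold) and 0.81 ± 0.14 (1.75-fold). Tmem165, a Golgi ion transporter whose loss impairs glycosylation, averaged 9.63 ± 0.09 in the hypoxia DMSO group, 9.41 ± 0.22 under BFA and 8.16 ± 0.59 under EHT-1864 (SD, n = 3), and fell by 1.47 ± 0.23 with EHT-1864 (2.76-fold). None of the 13 was called in hypoxia against normoxia.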
